A study of Mus musculus with 16 samples.

Results

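The ethanol-fed (EtOH) mice of this ileum RNA-seq series fell into unlike sets, and the libraries examined here were the EtOH libraries with a high level of Car1, the gene of a carbonic anhydrase that is abundant in the surface cells of the colon. A library was placed in the high-Car1 set when its Car1 level was above 1000 CPM (counts scaled to the library size with TMM factors). This held for 3 of the 8 EtOH libraries, out of 16 libraries in all. They were WT EtOH 2, fat-1 EtOH 3 and fat-1 EtOH 4, and they were set against the 5 other EtOH libraries (WT EtOH 1 and 3, fat-1 EtOH 1, 2 and 5). The members were thus chosen by their measured Car1 level, and differences between the sets are given below as descriptions, with no test.

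The series measured poly(A) RNA of the terminal ileum of male C57BL/6 mice, 1 library per mouse. The WT littermates carried no transgene, and the fat-1 mice were heterozygous for a C. elegans n-3 fatty acid desaturase, labelled Fat1+/-, which is not the mouse Fat1 gene and which was not analysed here. EtOH mice (3 WT, 5 fat-1) received a Lieber-DeCarli liquid diet with ethanol raised in steps to 6%, and pair-fed (PF) mice (4 WT, 4 fat-1) received maltose dextrin of equal calories in its place. PF libraries were numbered 1 to 8 and EtOH libraries 9 to 16, so that library order and diet cannot be told apart, and the high-Car1 libraries were numbers 12, 13 and 14.

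The ileum and the large intestine are lined by related epithelia with different work. Ileal enterocytes break down and take up nutrients, reclaim bile acids and vitamin B12, and stand above Paneth cells that fill the crypt base with antimicrobial peptides. The colon and cecum lack villi and, as a rule, Paneth cells, reclaim water and sodium under aldosterone control, carry a thick Muc2 mucus layer against a dense microbiota, and burn short-chain fatty acids. Posterior Hox genes are known to mark the colon, and the transcription factor Gata4 the proximal small intestine.

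The count totals ran from 8422645 to 11438539 per library, and the high-Car1 libraries held 9344942, 9759805 and 9045041 counts. A total of 3 counts corresponded to 0.246 to 0.421 CPM, so that levels near these values rest on single reads. TMM factors were 1.02 in WT EtOH 2, 1.251 in fat-1 EtOH 3 and 1.241 in fat-1 EtOH 4, against 1.035 to 1.129 in the other EtOH libraries. Several libraries stood apart from their group. fat-1 EtOH 5 had the highest summed B-cell follicle level of the other EtOH libraries (766.8 CPM), and Fabp6, the ileal bile acid binding protein, was at 26.1 and 3.31 CPM in fat-1 PF 2 and fat-1 PF 4 against 845.0 to 3890 CPM in the 6 other PF libraries.

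Car1 (chromosome 3, bases 14766216 to 14808368 of mm10) was the gene of the rule. Its level was 4041 CPM in WT EtOH 2, 11160 CPM in fat-1 EtOH 3 and 12210 CPM in fat-1 EtOH 4. Just outside the set came fat-1 EtOH 5 at 79.1 CPM and fat-1 EtOH 2 at 75.7 CPM, and the other three EtOH libraries were at 0.895 to 1.26 CPM. The PF libraries reached at most 58.6 CPM. No library therefore lay between 79.1 and 4041 CPM, and Car1 counts of 38494, 136041 and 136845 stood behind the values inside.

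The label colon-like was checked with 3 further markers, and it did not hold for all 3 libraries. Tlr5, the receptor for bacterial flagellin, was at 2.31 CPM in WT EtOH 2, 16.3 CPM in fat-1 EtOH 3 and 15.4 CPM in fat-1 EtOH 4, against 1.62 to 2.74 CPM in the other EtOH libraries. Nxpe2, a gene of the neurexophilin and PC-esterase family known from colon epithelium, was at 0.525, 43.1 and 27.7 CPM in the same order, against 0.252 to 3.59 CPM. Plet1, a surface protein of colon epithelium, was at 1.78, 184 and 140 CPM, against 0.985 to 2.14 CPM. WT EtOH 2 thus lay within the range of the other EtOH libraries for all 3 of these markers, and its Car1 level was the only one of the 4 that was high. By Tlr5, Nxpe2 or Plet1, the highest 3 EtOH libraries were fat-1 EtOH 3, 4 and 5. For this reason the set is called high-Car1 here, and each result is given for fat-1 EtOH 3 and 4 (the fat-1 pair) and for WT EtOH 2 apart.

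**Figure D1:**
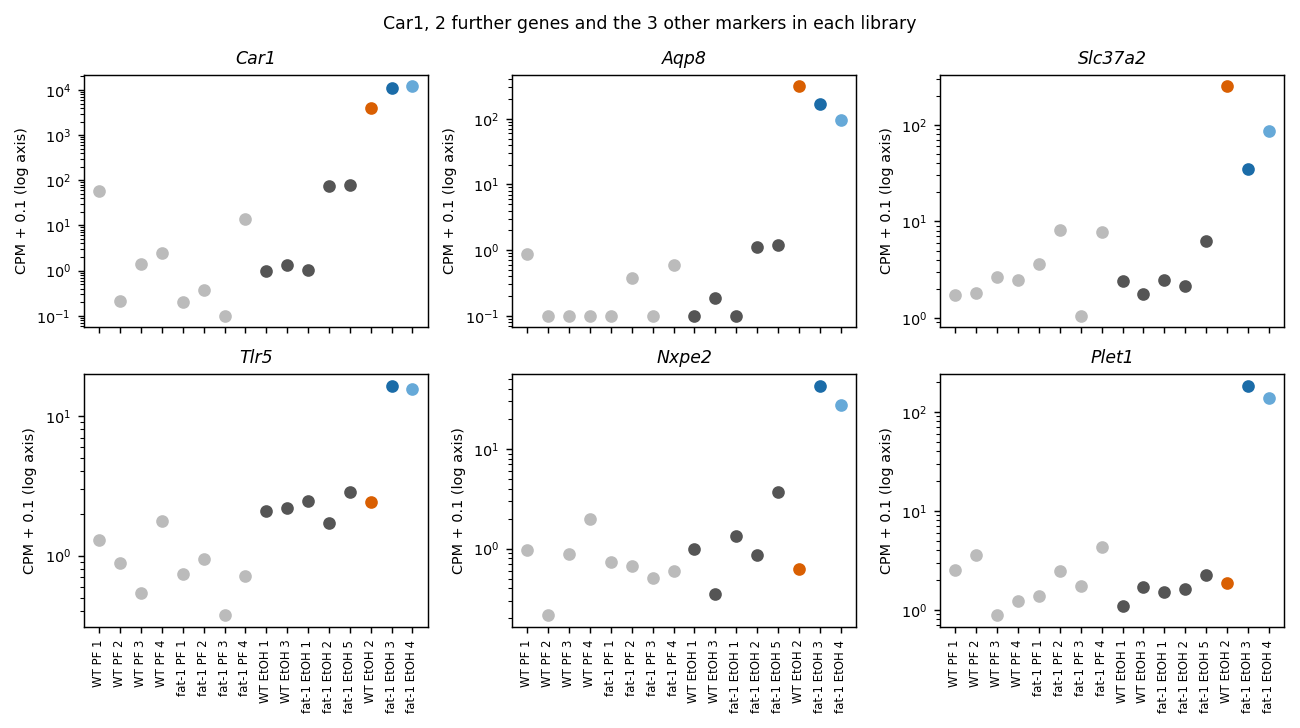
Levels of Car1, Aqp8, Slc37a2, Tlr5, Nxpe2 and Plet1 in TMM CPM on a log axis (0.1 added to each value), 1 point per library, in the PF (light gray), other EtOH (dark gray) and high-Car1 libraries (colored). Car1, Aqp8 and Slc37a2 separate 3 EtOH libraries from the rest, with 4041 CPM as the lowest of them for Car1, whereas for Tlr5, Nxpe2 and Plet1 only fat-1 EtOH 3 and 4 stand above the other libraries and WT EtOH 2 sits among them.

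The 250 bases before the start of 4 large intestine genes are shown because these genes divide the high-Car1 libraries: Aqp8, a water channel, was high in all 3, and Nxpe2, Plet1 and Tlr5 in the fat-1 pair. The sequences are from RefSeq (GRCm38.p6), 5′ to 3′ on the strand of the gene, at chr7:123462044-123462293 (plus strand) for Aqp8, chr9:48340899-48341148 (minus) for Nxpe2, chr9:50494275-50494524 (plus) for Plet1 and chr1:182954538-182954787 (plus) for Tlr5. They lie upstream of the RefSeq transcript start. Capitals mark a match, on either strand, to TTTAT, a core that CDX homeodomain factors bind, or to CAAAGT, part of the HNF4 site. A core bound by GATA factors, written AGATAA, was also searched.
Aqp8: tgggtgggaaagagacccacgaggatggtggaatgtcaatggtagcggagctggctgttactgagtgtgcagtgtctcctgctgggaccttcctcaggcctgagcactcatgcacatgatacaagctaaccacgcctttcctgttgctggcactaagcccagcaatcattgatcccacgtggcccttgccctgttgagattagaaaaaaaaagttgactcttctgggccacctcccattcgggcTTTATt
Nxpe2: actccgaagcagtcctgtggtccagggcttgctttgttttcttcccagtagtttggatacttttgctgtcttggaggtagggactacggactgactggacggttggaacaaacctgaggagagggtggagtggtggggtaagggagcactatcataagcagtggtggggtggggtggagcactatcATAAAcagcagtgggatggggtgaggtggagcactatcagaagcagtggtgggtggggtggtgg
Plet1: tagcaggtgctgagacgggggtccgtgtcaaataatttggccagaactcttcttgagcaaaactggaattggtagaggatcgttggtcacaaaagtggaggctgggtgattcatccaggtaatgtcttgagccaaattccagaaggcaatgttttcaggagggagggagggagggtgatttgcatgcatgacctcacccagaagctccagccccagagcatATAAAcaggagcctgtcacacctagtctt
Tlr5: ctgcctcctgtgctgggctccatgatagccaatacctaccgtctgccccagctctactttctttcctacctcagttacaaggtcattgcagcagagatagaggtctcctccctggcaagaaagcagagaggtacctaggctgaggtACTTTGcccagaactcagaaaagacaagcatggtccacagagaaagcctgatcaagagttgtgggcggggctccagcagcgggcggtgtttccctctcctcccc
The TTTAT match lay 6 to 2 bases before the start in Aqp8, and on the other strand at 64 to 60 bases in Nxpe2 and 29 to 25 bases in Plet1. The Plet1 match is part of TATAAA, the TATA box sequence, which contains these letters on the other strand. In Tlr5 the match was to CAAAGT on the other strand, 104 to 99 bases before the start. TTTAT was found in 37.3% of all 32851 promoter stretches of this length, AGATAA in 9.99% and CAAAGT in 12.6%, so that a match is common. Among the 30 stretches of the 27 large intestine genes that had one, of 36 listed, the shares were 56.7%, 13.3% and 16.7%. No stretch was matched for Car1.

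Across the 13811 genes kept by the filter on low counts, 372 genes (2.69%) lay higher in every high-Car1 library than in any other EtOH library, with a difference of mean log2 CPM of at least 1, and 216 genes (1.56%) lay lower. The mean is taken over the set, so that a gene counted in all 3 libraries need not differ by 2-fold in WT EtOH 2 itself. WT EtOH 2 held these counts down. The fat-1 pair alone had 958 genes higher (6.94%) and 1242 lower (8.99%), whereas WT EtOH 2 alone had 211 higher (1.53%) and 128 lower (0.927%). These 3 sets of differences share the same 5 comparison libraries. The fat-1 pair was much alike, with a Spearman correlation across genes of 0.992, and 13485 genes (97.6%) differed by less than 2-fold between them. WT EtOH 2 had a correlation of 0.981 to 0.984 with WT EtOH 1, WT EtOH 3, fat-1 EtOH 1 and fat-1 EtOH 2, of 0.958 with fat-1 EtOH 5, and of 0.935 and 0.939 with the fat-1 pair. These correlations are across genes, which are not independent replicates, and are given as a description.

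Of the genes with the largest differences across all 3 libraries, some carry water, ions and sugars, and others are enzymes of lipids and drugs. Aqp8 was at 315 CPM in WT EtOH 2, 168 CPM in fat-1 EtOH 3 and 95.4 CPM in fat-1 EtOH 4, and at 0 to 1.11 CPM in the other EtOH libraries. Slc37a2, a sugar phosphate exchanger, was at 253, 34.9 and 86.5 CPM, against 1.68 to 6.24 CPM. Both of these genes were higher in WT EtOH 2 than in the fat-1 pair, the reverse order of Car1. Gal3st2c, a sulfotransferase that adds sulfate to galactose on glycans, had this order too, at 159, 52.5 and 101 CPM against 0.252 to 1.71 CPM. Reads of Gal3st2c may be shared with its near copies, and the counting settings were not given in the sources used here.

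Other genes among the 15 largest differences were highest in the fat-1 pair. Acaa1b, a peroxisomal thiolase that cleaves fatty acids, was at 27.6 CPM in WT EtOH 2, 150.0 CPM in fat-1 EtOH 3 and 160.7 CPM in fat-1 EtOH 4, against 1.43 to 3.66 CPM in the other EtOH libraries. Cyp2c55, a cytochrome P450 known from mouse colon, was at 639, 1615 and 1693 CPM, against 23.0 to 93.1 CPM. In both genes WT EtOH 2 lay between the sets, above every other EtOH library and below the fat-1 pair. The PF libraries reached 48.9 CPM for Acaa1b, above WT EtOH 2, and 57.0 CPM for Cyp2c55. Car2, a second carbonic anhydrase, followed the same order at 234, 662 and 721 CPM, against 4.84 to 11.38 CPM.

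Further genes of the 15 were also higher in the pair than in WT EtOH 2. Sptssb, a subunit of the enzyme that starts sphingolipid synthesis, was at 38.9, 181 and 156 CPM against 1.52 to 3.42 CPM. Ugt8a, a galactosyltransferase of ceramide, was at 4.41, 20.01 and 24.2 CPM against 0.0855 to 0.425 CPM. Abca12, a lipid transporter, was at 41.6, 121 and 136 CPM against 1.14 to 5.80 CPM. The groups did not overlap in any of these genes. Foxd2, a forkhead transcription factor, was at 6.40, 50.03 and 46.4 CPM, against 0 to 0.599 CPM. Cyp2d34, a cytochrome P450, Ces1g, a carboxylesterase, and Sycn, a secretory granule protein, were also among the 15, with 14.9 to 72.5 CPM in WT EtOH 2, 40.1 to 176.5 CPM in the fat-1 pair and at most 2.47 CPM in the other EtOH libraries. Cyp2d34 and Ces1g have close paralogs, so that their values may hold reads of relatives.

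**Figure D2:**
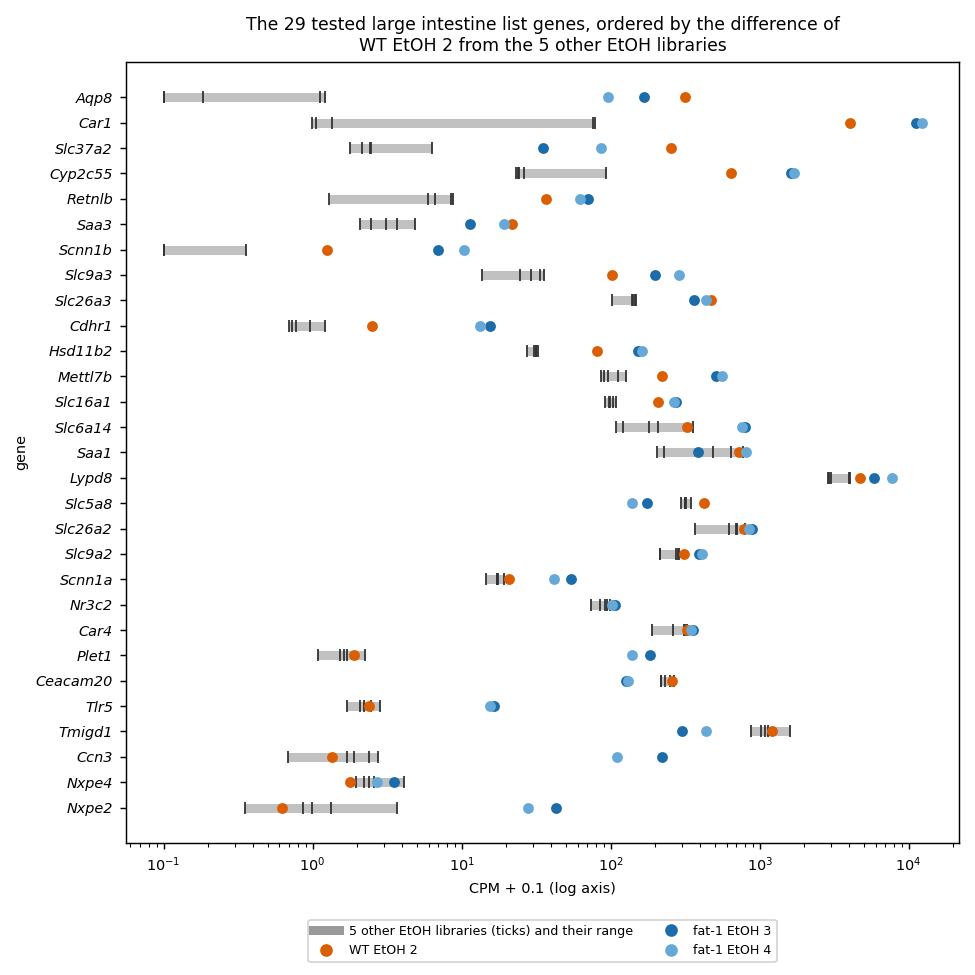
Levels of the 29 tested large intestine genes in TMM CPM on a log axis (0.1 added to each value), with 1 colored point for each high-Car1 library and, for the 5 other EtOH libraries, ticks on a gray bar that spans their range. Genes are ordered by the difference of WT EtOH 2 from the others. Aqp8 and Slc37a2 are highest in WT EtOH 2, at 315 and 253 CPM, whereas Plet1 is at 184 and 140 CPM in the fat-1 pair and at 1.78 CPM in WT EtOH 2.

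Genes of large intestine absorption and of its surface and defense formed a list of 36 genes, of which 35 were in the table and 29 passed the filter. The 29 include Car1, whose place was fixed by the rule, and the counts and medians here leave it out. Of the other 28, 13 were higher and 0 lower in all 3 high-Car1 libraries. In the fat-1 pair 19 were higher and 2 lower, and in WT EtOH 2 12 were higher and 0 lower. Over all genes the shares were 2.69% and 1.56%, 6.94% and 8.99%, and 1.53% and 0.927%. The median log2 difference was 1.80 for the 3 libraries, 2.17 for the pair and 0.66 for WT EtOH 2, and over all genes tested it was -0.01, 0.00 and -0.02. These list genes were chosen with earlier results of the data known, and the filter admits a gene that is high in few libraries, so the counts describe the list and support no difference. Of the 6 that did not pass, Atp12a (0, 3.28 and 2.14 CPM against 0 to 0.170), Tgm3 (0.105, 4.02 and 3.30 against 0 to 0.171), Scnn1g (0.105, 1.15 and 1.96 against 0 to 0.190) and Ly6g (0, 0.656 and 0.268 against 0 to 0.0895) were above the other EtOH libraries in the fat-1 pair, at levels of few counts. Fxyd4 had no count in any library, and Marco was at 143 CPM in fat-1 EtOH 5 and at most 0.984 CPM in the high-Car1 libraries.

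Sodium uptake in the colon runs through the epithelial sodium channel and the sodium-proton exchangers. Scnn1b, the beta subunit of the channel, was at 1.16 CPM in WT EtOH 2, 6.81 CPM in fat-1 EtOH 3 and 10.4 CPM in fat-1 EtOH 4. It had no count in 4 of the other EtOH libraries and was at 0.255 CPM in fat-1 EtOH 2. Scnn1a, the alpha subunit, was at 20.6, 54.1 and 41.8 CPM against 14.5 to 19.1 CPM. WT EtOH 2 was thus above the other libraries for both subunits, by less than the pair. Slc9a3, the main sodium-proton exchanger of the intestinal brush border, was at 102, 200 and 288 CPM against 13.7 to 35.5 CPM. Its PF range was 59.9 to 303 CPM, so that the high-Car1 libraries lay at the PF level and the 5 other EtOH libraries below it. Slc9a2, a related exchanger, was at 312, 393 and 411 CPM against 213 to 287 CPM, higher in each of the 3 libraries but by less than 2-fold.

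Some of the chloride, bicarbonate and acid transport genes were higher in all 3 libraries, and others were not. Slc26a3, the chloride-bicarbonate exchanger of the colon, was at 472 CPM in WT EtOH 2, 364 CPM in fat-1 EtOH 3 and 438 CPM in fat-1 EtOH 4, against 102 to 148 CPM in the other EtOH libraries and 133 to 209 CPM in PF. Slc16a1, which carries lactate and short-chain fatty acids, was at 209, 276 and 266 CPM against 91.3 to 108 CPM. Slc5a8, a sodium-coupled transporter of the same acids, had the other order in the fat-1 pair. It was at 425 CPM in WT EtOH 2, 176 CPM in fat-1 EtOH 3 and 139 CPM in fat-1 EtOH 4, against 297 to 346 CPM. Hsd11b2, which inactivates glucocorticoids so that the mineralocorticoid receptor answers to aldosterone, was at 80.6, 154 and 162 CPM against 27.5 to 32.3 CPM. The receptor gene itself, Nr3c2, was at 105, 108 and 103 CPM against 73.9 to 99.5 CPM, a difference of 0.25 on the log2 scale. Car4, a membrane carbonic anhydrase, was at 327, 359 and 347 CPM against 189 to 327 CPM. Slc26a2, a sulfate transporter, overlapped between the sets (788 to 892 CPM against 371 to 793 CPM). Slc6a14, an amino acid transporter of colon and inflamed ileum, was at 803 and 757 CPM in the pair and at 327 CPM in WT EtOH 2, within the 109 to 357 CPM of the others. Tmigd1, an adhesion protein of the brush border, was lower in the pair like Slc5a8, at 302 and 434 CPM against 878 to 1594 CPM, with 1205 CPM in WT EtOH 2.

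The surface and defense genes divided the 3 libraries more than the transport genes did. Ccn3, a matricellular protein, was at 1.26 CPM in WT EtOH 2, 221 CPM in fat-1 EtOH 3 and 111 CPM in fat-1 EtOH 4, against 0.588 to 2.65 CPM. Like Plet1 and Nxpe2 it was high in the fat-1 pair alone. Lypd8, a secreted protein that keeps flagellated bacteria from the colon surface, was at 4708, 5899 and 7706 CPM against 2877 to 4016 CPM. Retnlb, a goblet cell protein that acts on bacteria, was at 36.6, 70.3 and 62.2 CPM against 1.19 to 8.65 CPM, with a PF maximum of 1.86 CPM. Retnlb was therefore high in all 3 libraries, and 4 of the 5 other EtOH libraries were above every PF library as well. Mettl7b, a methyltransferase, was at 220, 513 and 555 CPM against 86.1 to 127 CPM, and Saa3, an acute phase protein, at 21.8, 11.2 and 19.2 CPM against 1.97 to 4.79 CPM. Saa1, which has near copies, overlapped between the sets at 724.5, 384 and 816.5 CPM against 204 to 769 CPM. Cdhr1, a cadherin, was at 2.41, 15.3 and 13.3 CPM against 0.599 to 1.11 CPM. Nxpe4 was at 1.68 to 3.44 CPM and overlapped with the others, and Ceacam20, an adhesion protein, was lower in the pair by less than 2-fold (126 and 130.2 CPM against 216 to 266 CPM). The annotated spans of Nxpe2 and Nxpe4 overlap, so that reads of one could count for the other.

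**Figure D3:**
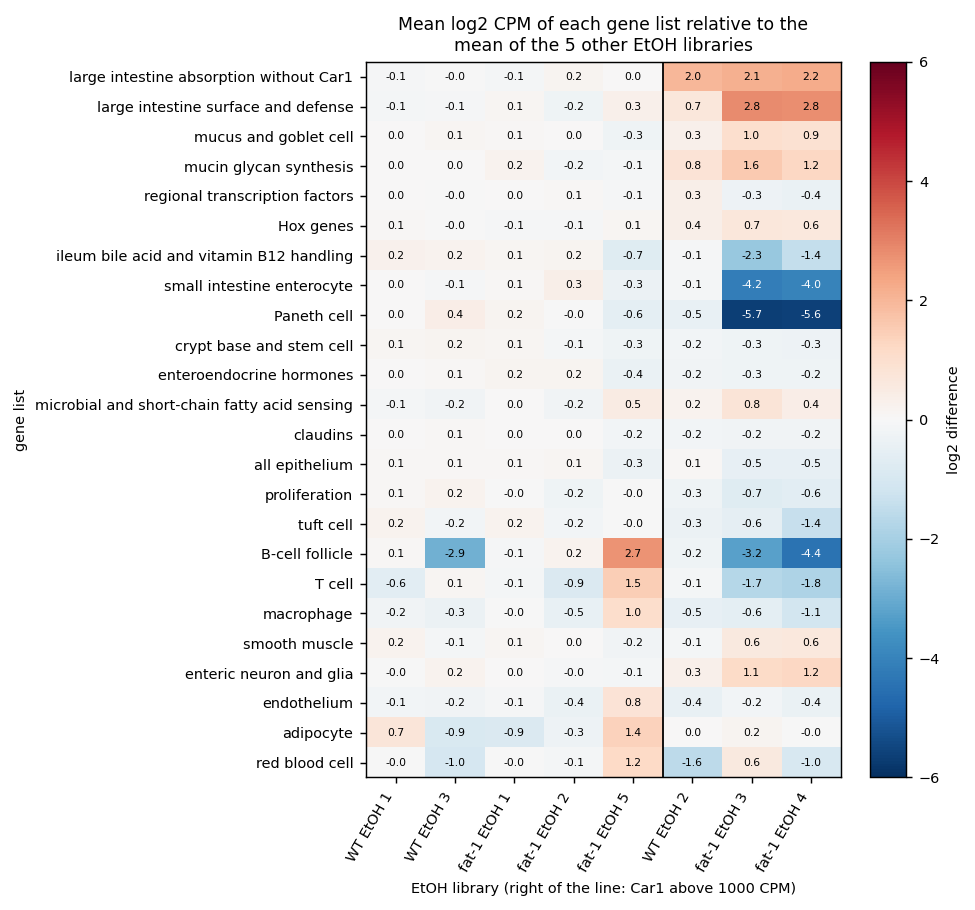
Mean log2 level of each gene list in each of the 8 EtOH libraries, relative to the mean of the 5 other EtOH libraries, in log2 units. Car1, the gene of the rule, is left out. The large intestine absorption list without it is at 1.99 in WT EtOH 2, where Aqp8 and Slc37a2 differ by 9.45 and 6.49, and at 2.11 and 2.21 in the fat-1 pair (median over its 16 genes 0.97 and 1.52), whereas the surface and defense list is at 0.70 against 2.82 and 2.78, and the small intestine and Paneth cell lists are lowest in the pair.

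Goblet cell genes were mixed. Muc2, the gel-forming mucin of the colon, was at 2023 CPM in WT EtOH 2, 8164 CPM in fat-1 EtOH 3 and 7544 CPM in fat-1 EtOH 4, against 1299 to 1848 CPM in the other EtOH libraries. Spdef, a transcription factor of goblet cell maturation, was at 27.0, 200.3 and 113 CPM against 23.2 to 31.3 CPM. Atoh1, the factor that commits cells to the secretory fate, was at 21.5, 87.3 and 69.4 CPM against 20.96 to 27.9 CPM. The pair was high and WT EtOH 2 within the others' range for both factors, and Creb3l1 and Agr2, which serve secretory protein production, were likewise high in the pair alone. In contrast, Clca1 was at 3178, 2838 and 2508 CPM against 3141 to 4936 CPM, and Fcgbp and Tff3, other secreted goblet cell proteins, were at 2113 to 2151 and 656 to 710 CPM in the pair against 3023 to 4239 and 1044 to 1333 CPM. Of 15 goblet cell genes tested, 2 were higher in all 3 libraries (Muc2 and Best2), 7 in the pair and 1 in WT EtOH 2, and 0 were lower by the same rule, where 2.69%, 6.94% and 1.53% of all genes were higher. Best2, a chloride channel of colon goblet cells, was at 1.99, 5.50 and 8.83 CPM, with a count in only 1 of the 5 other libraries (0.0851 CPM).

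Enzymes that build and cap mucin glycans followed. St6galnac6, a sialyltransferase, was at 69.7 CPM in WT EtOH 2, 478 CPM in fat-1 EtOH 3 and 379 CPM in fat-1 EtOH 4, against 8.49 to 12.1 CPM. B3galt5, a galactosyltransferase, was at 102, 333 and 149 CPM against 5.87 to 28.2 CPM. Fut2, which adds the terminal fucose of secretor antigens, was at 88.9, 232 and 189 CPM against 11.2 to 52.1 CPM. The 3 enzymes were above the other EtOH libraries in each high-Car1 library. St3gal4, another sialyltransferase, was low in the pair alone, at 130 and 127 CPM, with 2066 CPM in WT EtOH 2 and 1612 to 2246 CPM in the others. Of 12 glycan genes tested, 5 were higher in all 3 libraries (2.69% of all genes), and 6 were higher and 1 lower in the pair (6.94% and 8.99%).

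Regional transcription factors separated the fat-1 pair from WT EtOH 2. Cdx1 and Cdx2, the intestinal homeodomain factors, were at 189 to 240 CPM and 235 to 311 CPM in the high-Car1 libraries against 133 to 177 CPM and 185 to 209 CPM in the other EtOH libraries, differences of 0.51 and 0.44 on the log2 scale. Maf, a transcription factor of mature enterocytes, was at 427 CPM in WT EtOH 2, 26.2 CPM in fat-1 EtOH 3 and 37.4 CPM in fat-1 EtOH 4, against 374 to 508 CPM. Gata5, a factor of small intestine epithelium, was at 120, 6.40 and 8.21 CPM against 89.5 to 142 CPM, and Hnf4g, a factor of absorptive cells, at 171, 34.9 and 29.1 CPM against 163 to 272 CPM. Maf, Gata5 and Hnf4g were thus low in the pair only, while Hnf4a (1107, 901.5 and 873 CPM against 883 to 1286 CPM) had a log2 difference of -0.20. Of 17 factors tested, 2 were higher in all 3 libraries, Foxd2 among them, and 6 were lower in the pair and 0 in WT EtOH 2. Over all genes 2.69% were higher in the 3 libraries, and 8.99% and 0.927% were lower in the pair and in WT EtOH 2.

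Hox genes, which record position along the body axis, differed by cluster. Of 39 genes, 22 passed the filter, and 4 were higher and 3 lower in all 3 libraries, 10 higher and 5 lower in the pair, and 4 higher in WT EtOH 2, beside 2.69% and 1.56%, 6.94% and 8.99%, and 1.53% of all genes. Hoxa9 was at 5.25 CPM in WT EtOH 2, 3.53 CPM in fat-1 EtOH 3 and 3.66 CPM in fat-1 EtOH 4, against 0.0950 to 0.855 CPM, and Hoxa7 at 6.82, 5.99 and 8.39 CPM against 1.05 to 3.25 CPM. Hoxa10, a more posterior member, was at 1.05, 6.15 and 6.42 CPM against 0 to 0.428 CPM. Hoxd10, which did not pass the filter, was at 0.735, 7.30 and 7.05 CPM against 0 to 0.599 CPM. Of 5 HoxC genes tested, 5 were lower in the pair, 3 in all 3 libraries and 0 in WT EtOH 2, at levels under 9 CPM, with Hoxc8 at 6.19, 0.0820 and 0.268 CPM against 7.14 to 8.55 CPM. Hoxa9, Hoxa11 and Hoxd10 had at most 0.219 CPM in PF libraries, and Hoxb13, the most posterior of the HoxB cluster, had at most 0.164 CPM in any EtOH library.

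Ileal genes of bile acid and vitamin B12 handling were low in the fat-1 pair and not in WT EtOH 2. The summed level of the list was 1490 and 2470 CPM in the pair and 8248 CPM in WT EtOH 2, against 5465 to 9819 CPM in the other EtOH libraries. It was as low in fat-1 PF 2 and 4, at 1241 and 988.5 CPM (Slc10a2 at 7.58 and 3.56 CPM), whose Car1 was at 0.281 and 13.6 CPM. Fabp6 was at 4079 CPM in WT EtOH 2, 118 CPM in fat-1 EtOH 3 and 586 CPM in fat-1 EtOH 4, against 2344 to 4906 CPM in the other EtOH libraries. Slc10a2, which takes up bile acids from the ileal lumen, was at 1174, 394 and 531 CPM against 936 to 1382 CPM. Cubn, the receptor of vitamin B12 with intrinsic factor, was at 892, 60.5 and 66.9 CPM against 708 to 1307 CPM. Fgf15, the hormone that the ileum releases on bile acid uptake, was at 20.4, 0.0820 and 0.268 CPM against 4.36 to 108 CPM. Fabp6, Slc10a2 and Cubn were therefore detected at a lower level in the pair, where Fgf15 was at or below the level of 3 counts, and all of them were within the others' range in WT EtOH 2. Of 10 genes tested, 7 were lower in the pair (8.99% of all genes), 0 were lower in WT EtOH 2 (0.927%), and Abcc3, a bile acid exporter, was higher in all 3 libraries (135, 326 and 318 CPM against 52.5 to 68.6 CPM).

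Brush border and lipid genes of the small intestine enterocyte divided the 3 libraries. Anpep, an aminopeptidase of the brush border, was at 10730 CPM in WT EtOH 2, 64.5 CPM in fat-1 EtOH 3 and 83.4 CPM in fat-1 EtOH 4, against 9018 to 12160 CPM. Slc6a19, the neutral amino acid transporter, was at 1178, 9.51 and 11.42 CPM against 1006 to 1644 CPM. Apoa1, an apolipoprotein, was at 3768, 36.2 and 53.9 CPM against 2990 to 5005 CPM, and Mttp, which loads lipid onto such particles, at 818, 14.5 and 13.8 CPM against 691 to 790 CPM. In each of these genes WT EtOH 2 lay at or near the others' range and the pair far below it. Of 28 enterocyte genes tested, 26 were lower in the pair (8.99% of all genes) and 0 in WT EtOH 2 (0.927%), and 1, the fructose transporter Slc2a5, was lower in all 3 (1.56%). The median log2 difference was -4.38 for the pair and -0.06 for WT EtOH 2. Npc1l1, the cholesterol uptake protein, was at 572, 8.12 and 9.28 CPM against 591 to 805 CPM.

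**Figure D4:**
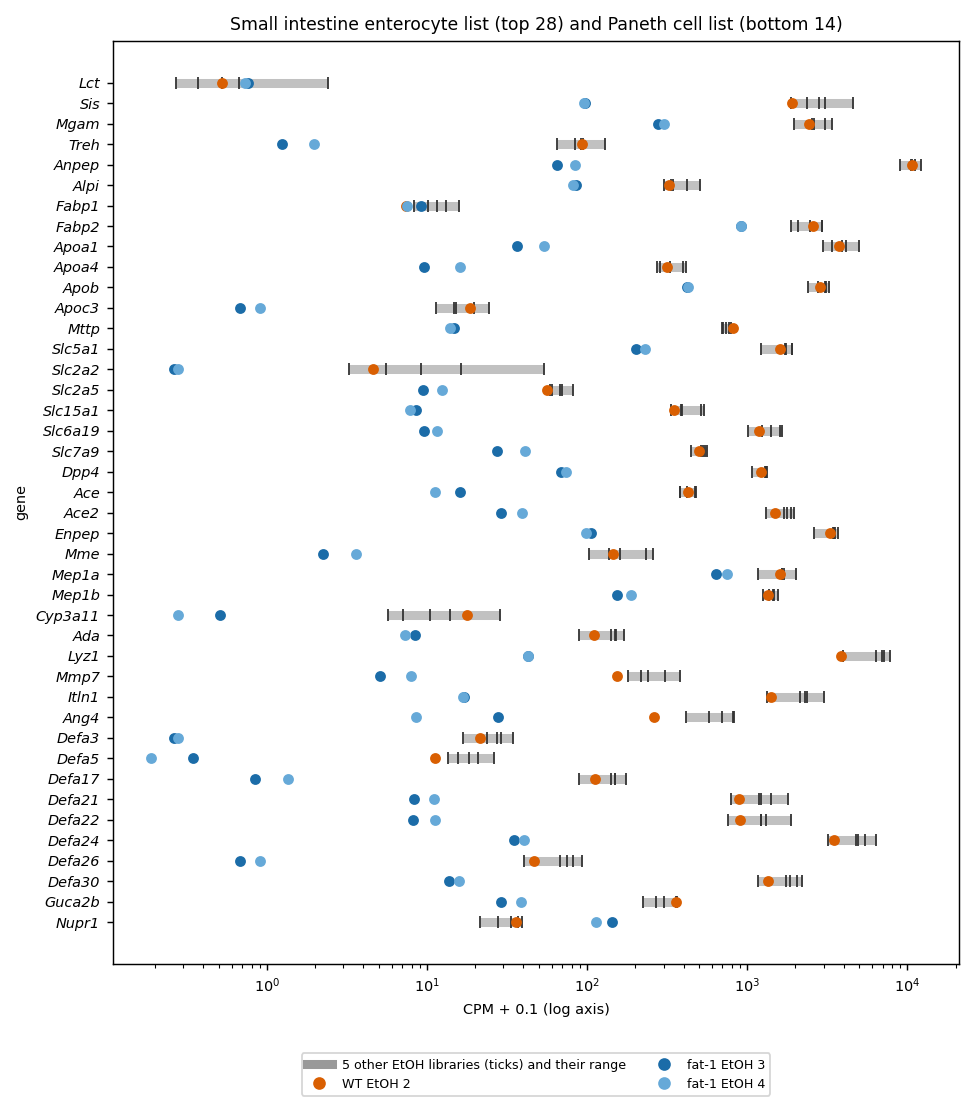
Levels of the 28 enterocyte (top) and 14 Paneth cell list genes (bottom) in TMM CPM on a log axis (0.1 added to each value), with 1 colored point for each high-Car1 library and ticks on a gray range bar for the 5 other EtOH libraries. WT EtOH 2 sits with or near the other libraries, as for Anpep at 10730 CPM, while the fat-1 pair lies far below them, at 64.5 and 83.4 CPM.

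Paneth cell genes had a median log2 difference of -6.58 in the pair and -0.47 in WT EtOH 2. Lyz1, the lysozyme of Paneth cells, was at 3848 CPM in WT EtOH 2, 42.7 CPM in fat-1 EtOH 3 and 42.3 CPM in fat-1 EtOH 4, against 3970 to 7846 CPM. Mmp7, the protease that activates defensins, was at 153, 5.00 and 7.85 CPM against 179 to 382 CPM. Ang4, a microbicidal ribonuclease, was at 261, 27.5 and 8.48 CPM against 414 to 827 CPM, and Mptx2, a mucosal pentraxin, at 211.5, 3.12 and 2.32 CPM against 290.1 to 694 CPM. In WT EtOH 2 these 4 genes were below every other EtOH library, with log2 differences of -0.71 (Lyz1), -0.73 (Mmp7), -1.31 (Ang4) and -1.05 (Mptx2) from the others' mean. Mptx2 was not on the list and was named among the 10 largest negative differences of genes lower in all 3 libraries. Of the 14 list genes tested, 13 were lower in the pair, 4 in all 3 libraries and 1, Ang4, in WT EtOH 2 taken alone, beside 8.99%, 1.56% and 0.927% of all genes. Among these 10 were also Bst1, a cyclase of the Paneth cell niche (25.4, 0.246 and 0.892 CPM against 32.6 to 59.96 CPM), Pla2g4c, a phospholipase (84.4, 4.92 and 3.48 CPM against 90.1 to 1339 CPM), Habp2, a plasma serine protease, and Gm15292. The defensins share near-identical copies (Defa24 was at 3489, 35.0 and 40.2 CPM), so that single members are uncertain. Guca2b and Nupr1 of this list are also expressed outside Paneth cells, and Nupr1 was higher in the pair (142 and 113 CPM against 21.4 to 39.0 CPM).

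Crypt genes did not move as one. Olfm4, a marker of small intestine stem cells that mouse colon largely lacks, was at 185 CPM in WT EtOH 2, 1.89 CPM in fat-1 EtOH 3 and 1.43 CPM in fat-1 EtOH 4, against 239 to 510 CPM. Lgr5, a stem cell receptor of both small and large intestine, was at 11.2, 10.6 and 11.7 CPM against 12.1 to 24.0 CPM, a difference of -0.67 on the log2 scale. Reg4, a marker of deep crypt secretory cells in the colon, was at 279, 319 and 286 CPM against 64.4 to 138 CPM. Cd44 and Sox9, surface and transcription factor genes of the crypt, were high in the pair alone, at 111 and 102 CPM against 31.1 to 41.6 CPM, and at 39.9 and 37.4 CPM against 10.95 to 19.7 CPM. Mki67, a proliferation marker, was at 121, 106 and 106 CPM against 137 to 216 CPM, and 2 of 14 proliferation genes were lower in the pair by the 2-fold rule, a share near the 8.99% of all genes. The summed level of this list was 483.5 to 602.6 CPM in the high-Car1 libraries and 634.5 to 886.7 CPM in the others, with a median log2 difference of -0.82 in the pair, and 474 to 785 CPM in PF.

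Some of the sensing and hormone genes differed in the pair. Tlr2, a receptor of bacterial lipoproteins, was at 13.7 CPM in WT EtOH 2, 53.1 CPM in fat-1 EtOH 3 and 51.3 CPM in fat-1 EtOH 4, against 2.76 to 4.79 CPM. Tlr4, the lipopolysaccharide receptor, was at 5.77, 20.9 and 13.8 CPM against 2.64 to 6.501 CPM. Ffar2, a receptor of short-chain fatty acids, was at 4.93, 22.6 and 21.05 CPM against 4.37 to 7.10 CPM. Tlr2 was the one of these that was also high in WT EtOH 2. Nod2 was at 5.09 and 4.64 CPM in the pair against 1.02 to 1.80 CPM, and Nlrp6, an inflammasome sensor, overlapped between the sets (257 to 294 CPM against 224 to 290.1 CPM). Of 16 sensing genes, 7 were higher and 3 lower in the pair, and of 13 enteroendocrine hormone genes 3 were higher and 3 lower, with a median log2 difference of -0.26 (all genes, 6.94% higher and 8.99% lower in the pair). Chga and Chgb, granins of enteroendocrine cells, were at 200.4 and 228 CPM and at 359 and 339 CPM in the pair, against 38.2 to 57.4 CPM and 52.9 to 96.1 CPM, and Nts, an ileal hormone, was at 37.1 and 28.2 CPM against 99.4 to 159 CPM.

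Markers of other cell types were given by their summed level, since bulk RNA holds them all and fewer cells of a type cannot be told apart from less RNA per cell. Epithelial genes summed to 14480 to 20910 CPM in the high-Car1 libraries and 16060 to 22400 CPM in the others, and 2 of 10 (Vil1 and Cdh17) were lower in the pair. Smooth muscle genes summed to 2759 to 4828 CPM against 2492 to 3462 CPM, and enteric neuron and glia genes to 56.8 to 100.5 CPM against 40.7 to 55.0 CPM, with 2 of 10 and 7 of 10 higher in the pair. T cell genes summed to 28.8 to 116 CPM against 56.4 to 255 CPM, with 10 of 11 lower in the pair. B-cell follicle genes summed to 3.12 to 95.8 CPM against 14.8 to 767 CPM, with 7 of 12 lower in the pair. In both of these lists WT EtOH 2 gave the highest sum of the high-Car1 libraries. Macrophage genes summed to 125 to 219 CPM against 214 to 782 CPM (2 of 9 lower in the pair), tuft cell genes to 64.9 to 105 CPM against 123 to 163 CPM (7 of 11 lower in the pair), and endothelial and adipocyte genes had 0 of 8 called each. These counts stand beside 6.94% of all genes higher and 8.99% lower in the pair. The part of these cell types in the differences above was not tested.

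Stomach and squamous markers were near 0, and the pancreas list was not. Stomach genes summed to at most 0.410 CPM and stratified squamous genes, which mark the anal end of the large intestine, to at most 1.05 CPM in the high-Car1 libraries, with 0 of 8 and 0 of 10 passing the filter, and Gkn1, Muc5ac and Krt5 had no count in any of the 3. Pancreas genes summed to 15.8 to 53.6 CPM against 5.04 to 6.89 CPM, of which Cela1, an elastase also expressed in gut epithelium, made up 15.6, 47.1 and 42.5 CPM. The defining acinar gene Cpa1 was at 0, 0.574 and 0.446 CPM. Red blood cell genes summed to 6.30 CPM in WT EtOH 2, 24.3 CPM in fat-1 EtOH 3 and 6.87 CPM in fat-1 EtOH 4, against 9.24 to 37.2 CPM in the other EtOH libraries. In WT EtOH 2, 5 of 5 were lower than in those (0.927% of all genes), as for Hbb-bs at 4.62 CPM against 6.47 to 21.6 CPM, and globin copies share reads.

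The comparison of diets within the labelled groups asks how ethanol feeding altered the intestine of each genotype, and it rested in part on the high-Car1 libraries, which made up 2 of 5 fat-1 EtOH and 1 of 3 WT EtOH libraries. The test was the edgeR quasi-likelihood test on the counts with Benjamini-Hochberg adjustment over all 13811 genes, and the groups are separate mice. In fat-1 EtOH against fat-1 PF, 2578 genes rose (18.7%) and 2592 fell (18.8%), and 18 of the 29 large intestine genes rose and 0 fell. Without the 3 high-Car1 libraries, 1912 genes rose (13.8%) and 2171 fell (15.7%), and 7 of the 29 rose and 3 fell. Leaving Car1 itself out of the list, 17 of 28 rose with these libraries and 7 without them, and the median log2 change of the 28 genes was 1.73 and 0.84, and over all genes tested 0.05 and 0.07. Many of these genes were high in the libraries left out, so that part of this drop was fixed by the choice. Leaving out fat-1 PF 2 and fat-1 PF 4, the PF libraries with low Fabp6, left 3 of the 29 called (Tlr5, Slc6a14 and Nxpe4, all higher), where 6.25% of all genes rose and 8.08% fell. There 13 of the 29 had an unadjusted p under 0.05, and the fold change of Plet1 was 5.50 ± 2.19 (SE, log2, adjusted p = 0.1, edgeR). Leaving out the 3 high-Car1 libraries as well left 4 (3 higher and 1 lower), where 4.27% of all genes rose and 7.60% fell.

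Genes that lost the call included the markers Plet1 and Nxpe2. Plet1 rose by 4.79 ± 1.42 (SE, log2 fold change, adjusted p = 0.0171, edgeR) with all libraries and was at -0.44 ± 0.496 (adjusted p = 0.519, edgeR) without them. Aqp8 rose by 8.05 ± 2.91 (adjusted p = 0.0421, edgeR) and was at 1.90 ± 1.23 (adjusted p = 0.257, edgeR) without them. Nxpe2 (4.82 with all libraries and 1.82 without the 3), Cyp2c55 (4.86 and 1.05), Scnn1b (8.12 and 2.97) and Mettl7b (1.64 and 0.31) lost their calls likewise, with adjusted p from 0.0654 to 0.264 (edgeR). Scnn1b had almost no reads in the other EtOH libraries, so that its call rested on the high-Car1 libraries and its loss was fixed by leaving them out. Of the 3 markers other than Car1, 3 rose with all libraries and 1, Tlr5, without the high-Car1 libraries. Car1 went from 10.38 ± 3.53 (adjusted p = 0.0325, edgeR) to 3.91 ± 1.76 (adjusted p = 0.114, edgeR), a drop that the choice of libraries by Car1 fixes and that is no result. Plet1, Nxpe2, Aqp8, Cyp2c55, Scnn1b and Mettl7b were also higher in the fat-1 pair than in the other EtOH libraries. Their drops follow in large part from leaving the pair out and are no separate result. The fit without the pair also held fewer fat-1 EtOH libraries.

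**Figure D5:**
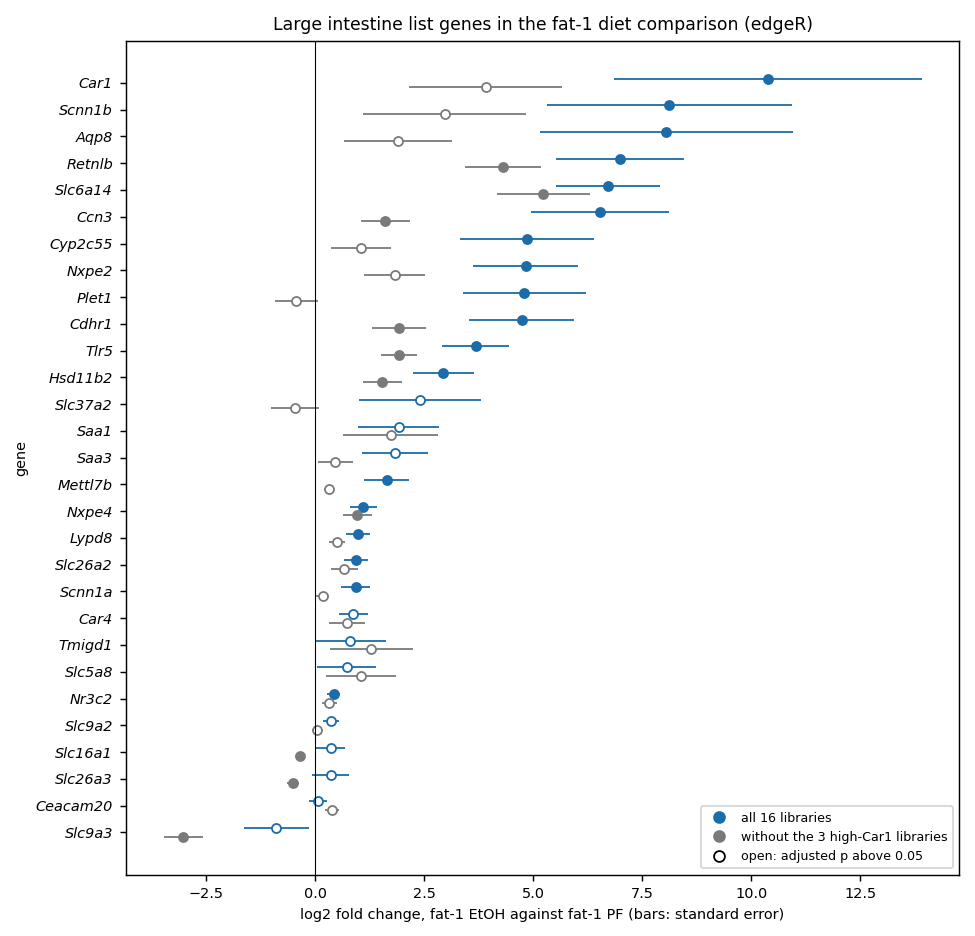
Log2 fold change with its SE (edgeR) of the large intestine genes in fat-1 EtOH against fat-1 PF, with all 16 libraries (blue) and without the 3 high-Car1 libraries (gray), open points for an adjusted p above 0.05. Plet1, which was high in the fat-1 pair left out, moves from 4.79 to -0.44, and Car1, by which the libraries were chosen, from 10.38 to 3.91, whereas Retnlb, Slc6a14 and Tlr5 stay above 0 and Slc9a3 moves to -3.03.

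Some large intestine genes were higher in EtOH apart from the high-Car1 libraries. Retnlb was at 5.89, 1.19 and 6.501 CPM in fat-1 EtOH 1, 2 and 5 and at 0 to 0.683 CPM in fat-1 PF, and without the 3 libraries it rose by 4.30 ± 0.867 (SE, log2, adjusted p = 0.00483, edgeR). Slc6a14 was at 120.5, 109 and 182 CPM against 0.702 to 10.9 CPM and rose by 5.22 ± 1.07 (adjusted p = 0.00584, edgeR). Tlr5 was at 2.38, 1.62 and 2.74 CPM against 0.273 to 0.842 CPM and rose by 1.92 ± 0.421 (adjusted p = 0.00632, edgeR). In each of these the 3 EtOH libraries lay above all 4 fat-1 PF libraries. Ccn3, Cdhr1, Hsd11b2 and Nxpe4 were the other genes that rose without the 3 libraries. Without fat-1 PF 2 and 4 in addition, the calls of Retnlb, Tlr5, Hsd11b2 and Slc9a3 held (adjusted p = 0.0482, 0.0305, 0.0191 and 0.0182, edgeR). The other genes kept their direction without a call. Slc6a14 was at 4.52 ± 1.41 (adjusted p = 0.0702, edgeR), Nxpe4 at 1.18 ± 0.407 (adjusted p = 0.0764, edgeR), Slc26a3 at -0.45 ± 0.161 (adjusted p = 0.0853, edgeR) and Slc16a1 at -0.29 ± 0.115 (adjusted p = 0.114, edgeR), and Cdhr1 and Ccn3 at 1.76 and 0.99.

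The genes that fell without the high-Car1 libraries were 3 transport genes that had been higher in the high-Car1 libraries than in the other EtOH libraries. Slc9a3 was at 33.45, 13.69 and 29 CPM in fat-1 EtOH 1, 2 and 5 and at 158 to 303 CPM in fat-1 PF. It fell by 3.03 ± 0.457 (SE, log2, adjusted p = 0.00207, edgeR), against -0.90 ± 0.744 (adjusted p = 0.353, edgeR) with all libraries. Slc26a3 fell by 0.52 ± 0.137 (adjusted p = 0.0149, edgeR) and Slc16a1 by 0.36 ± 0.106 (adjusted p = 0.0249, edgeR), and with all libraries both were above 0 with no call (0.35 each). Of the 28 small intestine enterocyte genes, 15 fell with all libraries and 20 without the 3, where 18.8% and 15.7% of all genes fell, and their median log2 change was -2.32 and -1.62. Without fat-1 PF 2 and 4 the enterocyte counts were 8 with the high-Car1 libraries and 14 without them.

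In WT mice, 1 gene rose (0.00724%) and 10 fell (0.0724%) between WT PF and WT EtOH, and 16 rose (0.116%) and 9 fell (0.0652%) without the 3 high-Car1 libraries. With fat-1 PF 2 and 4 left out as well, 222 rose and 243 fell, although these are not WT libraries. DESeq2 called 245 genes with all libraries, so that the number of WT genes called depends on the fit. Of the 29 large intestine genes, 0 passed the edgeR test (7 had an unadjusted p under 0.05, and DESeq2 called 2), and 0 without the 3 libraries (6 unadjusted). Over all 13811 genes, 1953 had an unadjusted p under 0.05 with all libraries and 2757 without the 3 (edgeR). Aqp8 was at 9.01 ± 2.93 (SE, log2, adjusted p = 0.215, edgeR) with WT EtOH 2 and at -1.86 ± 2.20 (adjusted p = 0.678, edgeR) without the high-Car1 libraries. Slc37a2 was at 5.36 ± 1.67 (adjusted p = 0.195, edgeR) and at -0.05 ± 0.679 (adjusted p = 0.974, edgeR). The values of both genes in WT EtOH thus came from WT EtOH 2, in which they were at 315 and 253 CPM.

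Between genotypes on ethanol, fat-1 EtOH against WT EtOH, 0 genes were higher (0%) and 1 was lower (0.00724%) with all libraries, and 0 (0%) and 1 (0.00724%) without the 3. Of the 29 list genes, 0 passed the edgeR test, 5 had an unadjusted p under 0.05 and DESeq2 called 3, and without the high-Car1 libraries 0 had an unadjusted p under 0.05. Over all 13811 genes, 671 had an unadjusted p under 0.05 with all libraries and 412 without the 3 (edgeR), and DESeq2 called 5. The difference of the diet effect between genotypes was tested as an interaction, and 0 of the 29 genes passed (5 with an unadjusted p under 0.05, edgeR, and DESeq2 was not run on it). Over all 13811 genes 0 passed and 1141 had an unadjusted p under 0.05 (edgeR). A call in fat-1 mice and none in WT mice was therefore not shown to be a difference between the genotypes.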

How the data were processed

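Raw counts of reads per Ensembl gene were deposited for 16 libraries. The authors aligned reads of strand-specific poly(A) libraries with tophat2 (2.0.13) to mm10 with Ensembl 82 and counted reads per gene with htseq, and the counting settings are not given in the sources used here. The submitters' processing notes also name FastQC 0.10.1, Cufflinks, bcl2fastq and the build ce10. Gene symbols and positions came from GENCODE M21 of the same build, in which 26 of 21965 genes are absent. Promoter stretches came from a RefSeq table (GRCm38.p6), and TTTAT replaced a longer CDX motif after a first search.

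TMM factors, CPM and log2 CPM (prior count 2) were computed with edgeR 4.0.16 in R 4.3.3 on 13811 genes kept by filterByExpr over the 4 groups. Figures were drawn with matplotlib 3.10.9. A gene was counted as higher or lower when the sets did not overlap and mean log2 CPM differed by at least 1. The labelled groups were compared with the robust quasi-likelihood test over all 16 libraries (adjusted p threshold 0.05), with DESeq2 1.42.0 as an alternative. The test was tried on simulated counts with a single spread for all genes and like libraries within each group. How it performs on mixed groups such as fat-1 EtOH was not tested. The SE beside a log2 fold change was derived from this test, as the size of the change divided by the square root of its quasi-likelihood F. Named genes were the listed genes and the 15 highest and 10 lowest differences among genes counted as higher or lower with at least 5 CPM in the higher set. Some named genes are not reported here, although counts over lists include them. The libraries and lists were chosen with earlier results of these data known. Comparisons without particular libraries, apart from the planned leave-one-out and the fit without the high-Car1 libraries, were chosen after seeing the data.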

Additional observations from a re-analysis of the deposited data

Results flagged for a closer look

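Among 90 list and marker levels tested within groups of 4 or more libraries, 4 had a library far from the rest, where chance gives about 1 in 20, and none was a high-Car1 library (the 3 WT EtOH libraries, WT EtOH 2 among them, were too few to be tested, and the like values of fat-1 EtOH 3 and 4 can hide each other in a test of a single distant library). All are mean log2 CPM over a list. Regional transcription factors were at 6.02 in WT PF 4, against 6.243 to 6.275 in the other WT PF libraries. Paneth cell genes were at 9.321 in WT PF 2, against 8.959 to 9.005. Microbial sensing genes were at 2.184 in fat-1 PF 2, against 2.258 to 2.269 in the other fat-1 PF libraries. Endothelial genes were at 3.987 in fat-1 EtOH 5, against 2.757 to 3.105 in the other fat-1 EtOH libraries.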

How the results depend on the processing

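Leaving out 1 EtOH library at a time gave 321 to 958 genes higher and 167 to 1242 lower in the high-Car1 libraries, with 958 and 1242 without WT EtOH 2 and 339 lower without WT EtOH 3. WT EtOH 2 alone had 211 higher and 128 lower, and fat-1 EtOH 3 and 4 against 4 others without fat-1 EtOH 5 had 1003 and 1215. With at least 10 counts in every EtOH library 142 genes were lower. Sets of the 3 libraries highest in Tlr5, Nxpe2 or Plet1 had 174 genes higher. RLE, upper-quartile and EtOH-only TMM factors moved the median of all genes to between -0.012 and 0.024, and of 320 listed or named genes tested, 0 of the 62 called in all 3 libraries, the 185 called in the pair and the 45 called in WT EtOH 2 changed direction under them or with a prior count of 0.5. The prior count moved low genes most, with the log2 difference of Aqp8 going from 8.57 to 9.66 and of Scnn1b from 4.29 to 5.93.

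Of the 29 large intestine genes, Car1 among them, 18 were called in fat-1 EtOH against fat-1 PF. Leaving out 1 library gave 11 to 19 calls, with 11 without fat-1 PF 2 or fat-1 PF 4. The count was 8 with at least 10 counts in every library, 10 with only the 2 groups compared, 10 without the 3 high-Car1 libraries, 6 without fat-1 EtOH 3 and 4, 6 without the high-Car1 libraries and fat-1 EtOH 5, 3 without fat-1 PF 2 and 4, and 4 without the high-Car1 libraries and fat-1 PF 2 and 4. The filter of 10 counts also removes list genes with few reads, so that its 8 are not out of 29. Shares of all genes are given above only for the fits without the high-Car1 libraries, without fat-1 PF 2 and 4, and without both. In WT EtOH against WT PF, leaving out 1 library gave 0 to 0 calls, DESeq2 gave 2, only the 2 groups compared gave 3, and leaving out fat-1 EtOH 3 and 4, or the high-Car1 libraries with fat-1 PF 2 and 4, gave 1 each. Over all 13811 genes, the last of these fits had 222 higher and 243 lower, and DESeq2 called 245. In fat-1 EtOH against WT EtOH, DESeq2 gave 3 calls, where it called 5 over all genes, and leaving out 1 library gave 0 to 0. The cause of these shifts was not tested, beyond the fewer libraries or genes that the settings hold.

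The replicate block gave 16, 0 and 0 calls in the 3 comparisons. Whether the numbers pair the mice is not known. Libraries of the same number in different groups had a mean correlation of deviations of -0.0225 (21 pairs), and other pairs 0.00703 (74 pairs). No shared shift in expression was thus seen, which cannot exclude a pairing by feeding or litter. Levels under about 3 counts (0.246 to 0.421 CPM) limit the lowest genes, such as Scnn1b and the HoxD genes, in counting error.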

Other observations

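Some small intestine genes were low in all EtOH libraries, whatever their Car1 level. Lct, the lactase of the brush border, was at 0.420, 0.656 and 0.6245 CPM in WT EtOH 2, fat-1 EtOH 3 and fat-1 EtOH 4, at 0.171 to 2.30 CPM in the other EtOH libraries and at 78.3 to 2979 CPM in PF libraries. Without the 3 high-Car1 libraries Lct fell by 10.56 ± 1.28 (SE, log2, adjusted p = 0.00197, edgeR) in fat-1 EtOH against fat-1 PF and by 10.78 ± 1.65 (adjusted p = 0.0398, edgeR) in WT EtOH against WT PF. Gata4, a transcription factor of the proximal small intestine, was at most 1.11 CPM in the EtOH libraries and at 25.6 to 156 CPM in PF libraries, and without the high-Car1 libraries it fell by 6.85 ± 0.634 (adjusted p = 0.00119, edgeR) in fat-1 mice and by 7.66 ± 0.875 (adjusted p = 0.0309, edgeR) in WT mice. These genes were chosen after their values were seen.

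Hoxb6 and Hoxb9 of the HoxB cluster, which were also chosen after their values were seen, were higher in every EtOH library than in every PF library. Hoxb6 was at 31.8 to 72.4 CPM in the 8 EtOH libraries and at 1.54 to 18.9 CPM in PF libraries, and Hoxb9 was at 47.6 to 100.3 CPM against 0.246 to 26.3 CPM. In fat-1 EtOH against fat-1 PF, Hoxb6 rose by 2.84 ± 0.466 (SE, log2, adjusted p = 0.00253, edgeR) and Hoxb9 by 3.46 ± 0.713 (adjusted p = 0.00605, edgeR) without the high-Car1 libraries. Hoxb6 and Hoxb9 were also low in fat-1 PF 2 and 4 (at most 2.09 and 0.281 CPM), and without these libraries as well they rose by 2.15 ± 0.307 (adjusted p = 0.0117, edgeR) and 2.52 ± 0.316 (adjusted p = 0.00913, edgeR). In WT mice they were at 1.70 ± 0.467 (adjusted p = 0.101, edgeR) and 1.68 ± 0.695 (adjusted p = 0.213, edgeR) and did not pass the test. All 10 smooth muscle genes tested rose in fat-1 EtOH against fat-1 PF, with and without the high-Car1 libraries, where 18.7% and 13.8% of all genes rose, and without fat-1 PF 2 and 4 the counts were 8 and 7. In WT EtOH against WT PF, 0 of the 10 passed the edgeR test with all libraries and 2 rose without the high-Car1 libraries, with 9 of the 10 at an unadjusted p under 0.05 in both fits. Of all 13811 genes, 0.116% rose without the high-Car1 libraries. An unadjusted p under 0.05 was reached by 1953 genes with all libraries and 2757 without the high-Car1 libraries (edgeR).

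Marco, a macrophage scavenger receptor that was listed with the large intestine surface genes, was at 143 CPM in fat-1 EtOH 5 and at 0 to 0.984 CPM in the 7 other EtOH libraries.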
